A study of Homo sapiens with 27 samples.

Results

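The EGF receptor family and its ligands were read in 3 human cancer cell lines under cycling and chronic hypoxia. The genes in question were the receptors EGFR, ERBB2 and ERBB3 and the ligands HBEGF, EREG, AREG, TGFA and BTC. A probe set was taken as a member where the platform annotation paired it with 1 gene symbol and that symbol was among these 8. The rule found 28 probe sets of 7 genes, out of 19775 genes that had such a probe set. EGFR had 9 of them, ERBB3 5, HBEGF 4, ERBB2 and TGFA 3 each, and EREG and BTC 2 each. The annotation paired none with AREG. A probe set is called AREG here after the gene lists that accompany the study, which hold genes picked for their change under cycling hypoxia on these arrays. AREG is therefore described beside the 7 genes and left out of their counts. The lists also required a difference between cycling and chronic cells. The values of AREG under both kinds of hypoxia in SK-OV-3 and PC-3 cells, which led to its place there, are given with no test. HBEGF and EREG are in the SK-OV-3 list too, so their tests in hypoxic SK-OV-3 cells use arrays that also led to that list. The study also prints HBEGF among its PC-3 genes, as marginal to its criteria.

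The 27 arrays came from 3 established lines, SK-OV-3 from an ovarian cancer, WM793B from a melanoma and PC-3 from a prostate cancer, with 3 biological replicas of each of the 3 conditions. Cycling hypoxia alternated periods of 4 h or 12 h at 1% oxygen with periods of 4 h at 21% oxygen over 72 h, and by the culture scheme it ended in a period at 21%. Chronic hypoxia was 72 h at 1% oxygen, and control cells stayed at 21% oxygen for 72 h. The lines grew in different media, WM793B cells with less serum than the others and with added insulin, so that line and medium cannot be told apart.

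EGFR, ERBB2 and ERBB3 are tyrosine kinases of the cell surface that signal as pairs. EGFR binds the ligands studied here, ERBB2 has no known ligand and serves as a partner, and ERBB3 has a weak kinase and binds neuregulins. The ligands are made as membrane proteins, which proteases such as ADAM17 cut free, and an active receptor signals through RAS and ERK and through PI3 kinase.

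Values are log2 signals per probe set, and a difference of 1 is a factor of 2. The lowest value in the table was 2.28, and many genes without signal sat at or near it. Each gene is read by its brightest probe set, that with the highest mean over the 27 arrays, and levels of different probe sets are not set against each other. A gene counted as called at an adjusted p under 0.05 in limma's moderated test with 3 arrays per group, adjusted over the 19800 probe sets that varied among the arrays. Of the 28 member probe sets 19 passed that filter. The 9 others reached at most 5.34, on 1 ERBB3 probe set, and those of EGFR, HBEGF and EREG at most 2.95. Within a cell line the cycling and the chronic cells were set against the same control arrays. In bulk RNA, fewer cells of a type and less RNA per cell cannot be told apart.

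The lines kept part of their lineage markers. All 8 epithelial markers had means of at least 5 in SK-OV-3 and in PC-3 cells and none in WM793B cells, whose highest epithelial value was 5.3. The 4 mesenchymal markers, VIM, CDH2, ZEB1 and FN1, had means of at least 5 in every line. PAX8, a Müllerian lineage factor, averaged 9.33 in SK-OV-3 cells and SOX17 8.36, while MUC16 and EMX2 stayed at 2.28 and WT1, at 3.63, was below its means in WM793B (6.39) and PC-3 cells (5.51). SOX10, a factor of the melanocyte lineage, averaged 10.44 in WM793B cells, while the pigment genes PMEL, MLANA, TYR and TYRP1 were at 2.28 to 2.4 there. MITF, another factor of that lineage, averaged 8.41 in WM793B cells, below 9.35 in SK-OV-3 cells and above 7.62 in PC-3 cells. Of the prostate markers, HOXB13 averaged 9.85 in PC-3 cells (at most 4.77 on any array of the other lines) and TMPRSS2 7.8 (2.28 in the other lines), while KLK3, at 4.49, was close to its 4.72 in SK-OV-3 cells. The 4 leukocyte markers measured stayed at or below 2.58 on all arrays. Of 9 measured hypoxia genes, 9 rose in each line under chronic hypoxia. The share of all probe sets called was 43.8% in SK-OV-3, 39.7% in WM793B and 60.4% in PC-3 cells. The study lists these genes as changed by chronic hypoxia in all 3 lines on these arrays. That outcome was therefore fixed by the choice of genes and is no check of the cultures. Under cycling hypoxia 8 rose in SK-OV-3 (30.3%), 7 in WM793B (17.2%) and 9 in PC-3 cells (45.2%).

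The receptors set the lines apart before any hypoxia. Among control arrays, 7 of the 7 genes differed between SK-OV-3 and WM793B cells (80.6% of all probe sets tested did), 5 of 7 between SK-OV-3 and PC-3 cells (78.1%) and 5 of 7 between WM793B and PC-3 cells (77.7%). These shares are close to those of all probe sets, and the sizes are what follows.

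ERBB2 read 12.83, 13.01 and 12.5 on the SK-OV-3 control arrays, 6.6, 6.98 and 6.76 on the WM793B arrays and 7.04, 7.11 and 7.05 on the PC-3 arrays. All SK-OV-3 arrays lay far above the others, 64-fold above WM793B cells (adjusted p = 6.24e-20) and 52.6-fold above PC-3 cells (adjusted p = 2.33e-19). A second ERBB2 probe set (210930_s_at) read 8.95 to 10.82 over the 9 SK-OV-3 arrays and 2.84 to 3.48 in the other lines. WM793B and PC-3 cells differed by -0.28 (95% interval -0.61 to 0.04, adjusted p = 0.103).

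Hypoxia left ERBB2 without a call in every line on this probe set. The cycling SK-OV-3 arrays read 13.07, 13.1 and 13.25, the chronic arrays 13.07, 13.15 and 12.92. The rise over control was 0.36 (95% interval 0.04 to 0.68, adjusted p = 0.0874) under cycling hypoxia. Without control replicate 2 this difference was 0.47 with an adjusted p of 0.0388. The dimmest ERBB2 probe set (234354_x_at) was called in SK-OV-3 cells, with 4.28, 5.82 and 5.16 under cycling and 5.37, 5.6 and 5.63 under chronic hypoxia, against 4.26, 3.61 and 3.14 in control cells. Its differences were 1.42 (adjusted p = 0.0411) and 1.86 (adjusted p = 0.00999), so that the probe sets of ERBB2 disagree.

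ERBB3 had the opposite distribution. The SK-OV-3 control arrays read 2.78, 3.52 and 2.78, the WM793B arrays 10.78, 10.89 and 10.73, and the PC-3 arrays 7.63, 7.8 and 7.71. SK-OV-3 cells thus sat near the lowest value of the table, where differences are compressed, and at least 219-fold below WM793B cells (adjusted p = 1.17e-21). WM793B cells exceeded PC-3 cells 8.49-fold (adjusted p = 5.46e-14).

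ERBB3 fell under hypoxia in the lines that had it. In WM793B cells it read 10.27, 10.31 and 10.05 under cycling and 9.92, 9.63 and 9.61 under chronic hypoxia, against the control values above, and no group overlapped another. The differences from control were -0.59 (SE 0.11, adjusted p = 0.0123) for cycling and -1.08 (SE 0.11, adjusted p = 0.000413) for chronic hypoxia. Cycling cells were 0.49 above chronic cells (adjusted p = 0.0262), but with 1 of 4 arrays left out (cycling replicate 1 or 2, chronic replicate 2 or 3) the adjusted p of that difference was 0.0541 to 0.088.

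In PC-3 cells ERBB3 fell under chronic hypoxia and not under cycling hypoxia. The arrays read 7.44, 7.6 and 7.59 under cycling and 6.8, 6.97 and 6.72 under chronic hypoxia. Chronic cells were 0.88 below control, a log2 difference of -0.88 (SE 0.08, adjusted p = 6.57e-05), and cycling cells differed by -0.17 (95% interval -0.36 to 0.02, adjusted p = 0.129). Cycling lay 0.71 above chronic hypoxia (SE 0.08, adjusted p = 0.000733). A second ERBB3 probe set (202454_s_at) moved the same way under chronic hypoxia, by -1.19 in WM793B (adjusted p = 0.00164) and -1 in PC-3 cells (adjusted p = 0.00367), but its -0.59 under cycling hypoxia in WM793B cells was not called (adjusted p = 0.0521). The third that passed the filter (1563253_s_at), dimmer than these, was called only in WM793B cells under chronic hypoxia among the comparisons within lines (log2 difference -0.73, adjusted p = 0.00614).

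EGFR rose in SK-OV-3 and PC-3 cells kept at low oxygen throughout. In SK-OV-3 cells its brightest probe set (201983_s_at) read 9.43, 9.27 and 9.72 under cycling hypoxia, 10.62, 10.34 and 10.97 under chronic hypoxia, and 9.58, 9.27 and 9.57 in control cells. The chronic arrays stood above all 6 others, while cycling and control arrays covered the same range. Chronic hypoxia exceeded control 2.25-fold (log2 difference 1.17, SE 0.19, adjusted p = 0.00217), and cycling lay 1.17 below chronic hypoxia (log2 difference -1.17, adjusted p = 0.00385). The difference of cycling cells from control was 0 (95% interval -0.44 to 0.45).

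In PC-3 cells EGFR was higher under both kinds of hypoxia. The arrays read 10.05, 10.13 and 9.96 under cycling, 10.51, 10.5 and 10.41 under chronic hypoxia and 9.42, 9.25 and 9.62 in control cells. The 3 groups did not overlap. Chronic cells were 2.06-fold above control (SE of the log2 difference 0.1, adjusted p = 6.75e-05) and cycling cells 1.54-fold (SE 0.1, adjusted p = 0.00177). The difference between cycling and chronic cells, -0.42, had an adjusted p of 0.0122, and of 0.0583 where all 27 arrays gave the spread.

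In WM793B cells the EGFR probe sets went apart. The brightest read 7.78, 7.49 and 7.83 under cycling, 8.05, 7.9 and 7.37 under chronic hypoxia and 8.08, 8.15 and 8.15 in control cells, with differences from control of -0.43 (adjusted p = 0.147) and -0.35 (adjusted p = 0.161). Another probe set (201984_s_at) rose under chronic hypoxia, where it read 8.25, 8.14 and 7.85, against 6.91, 6.88 and 7.29 in control cells (log2 difference 1.05, SE 0.17, adjusted p = 0.00316). A further one (224999_at) fell, with 6.81, 6.9 and 6.96 under chronic hypoxia against 7.87, 7.72 and 7.9 in control cells (log2 difference -0.94, SE 0.07, adjusted p = 0.000136). No direction for EGFR in chronic WM793B cells can be read from these probe sets together. Under cycling hypoxia 224999_at was called lower there (log2 difference -0.62, SE 0.07, adjusted p = 0.00234). The brightest had no call, and 201984_s_at averaged 7.26 against 7.03 in control cells, also without a call. In PC-3 cells kept at 1% oxygen the EGFR probe sets differed in size, with 2.75 on 201984_s_at (SE 0.13, adjusted p = 2.96e-06) and 0.14 on 224999_at (adjusted p = 0.156). In SK-OV-3 cells the same 3 were all called higher in chronic than in control cells, by 1.17, 0.72 and 0.94. The remaining 2 (210984_x_at and 211607_x_at) were called higher in PC-3 cells under both conditions and had no call in the other lines.

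**Figure D1:**
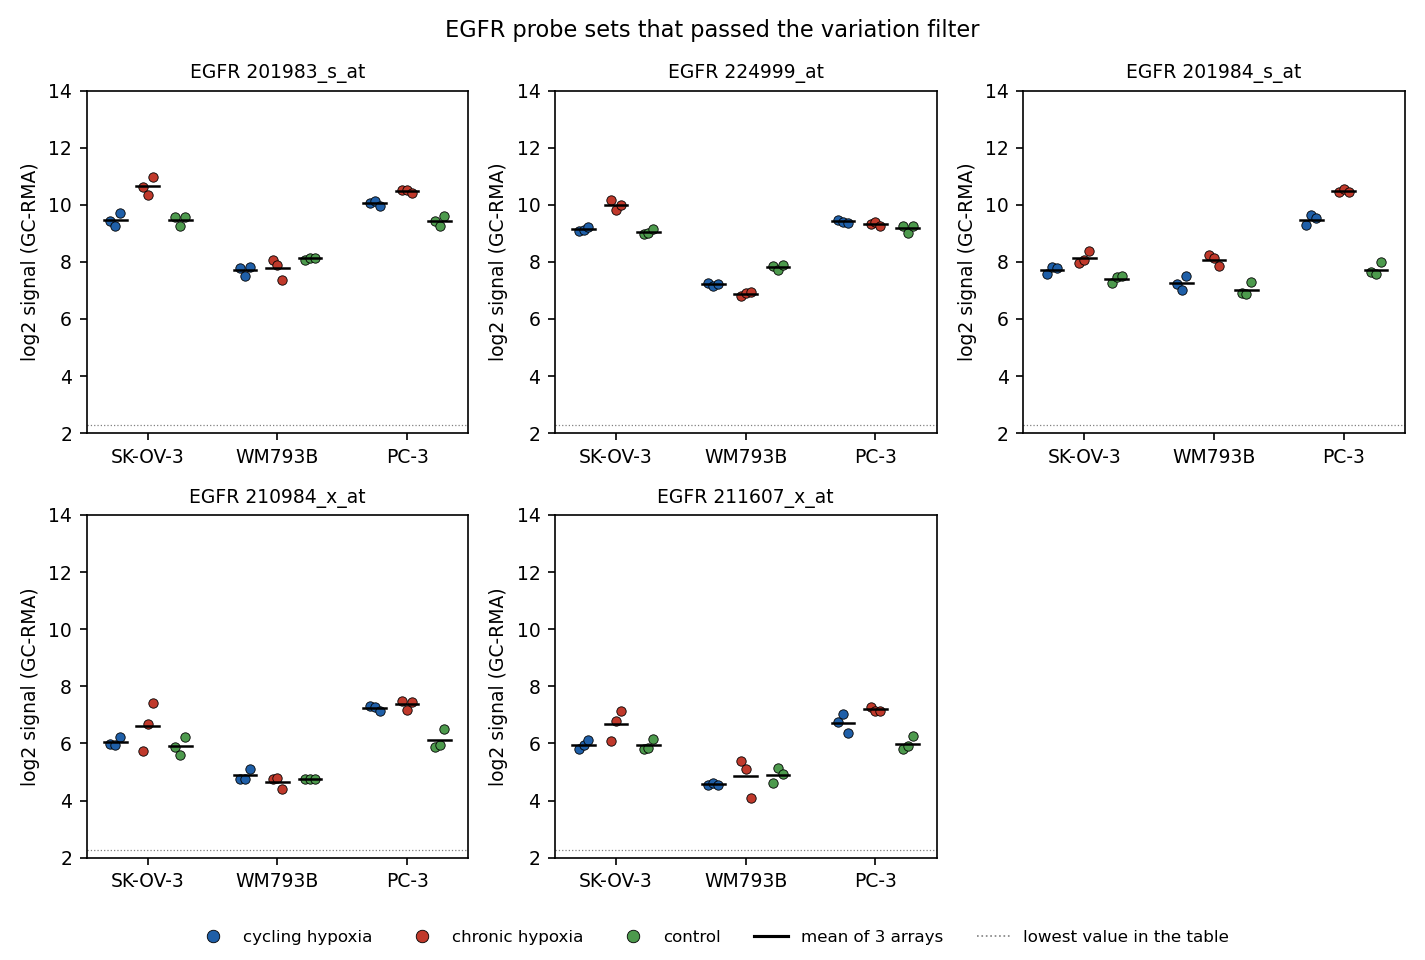
Log2 signal of the 5 EGFR probe sets that passed the variation filter, by cell line, each point an array and each bar the mean of 3 arrays, with cycling hypoxia, chronic hypoxia and control from left to right. On 201984_s_at the WM793B chronic arrays (7.85 to 8.25) stand above their controls (6.88 to 7.29), and on 224999_at they stand below them (6.81 to 6.96 against 7.72 to 7.9).

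**Figure D2:**
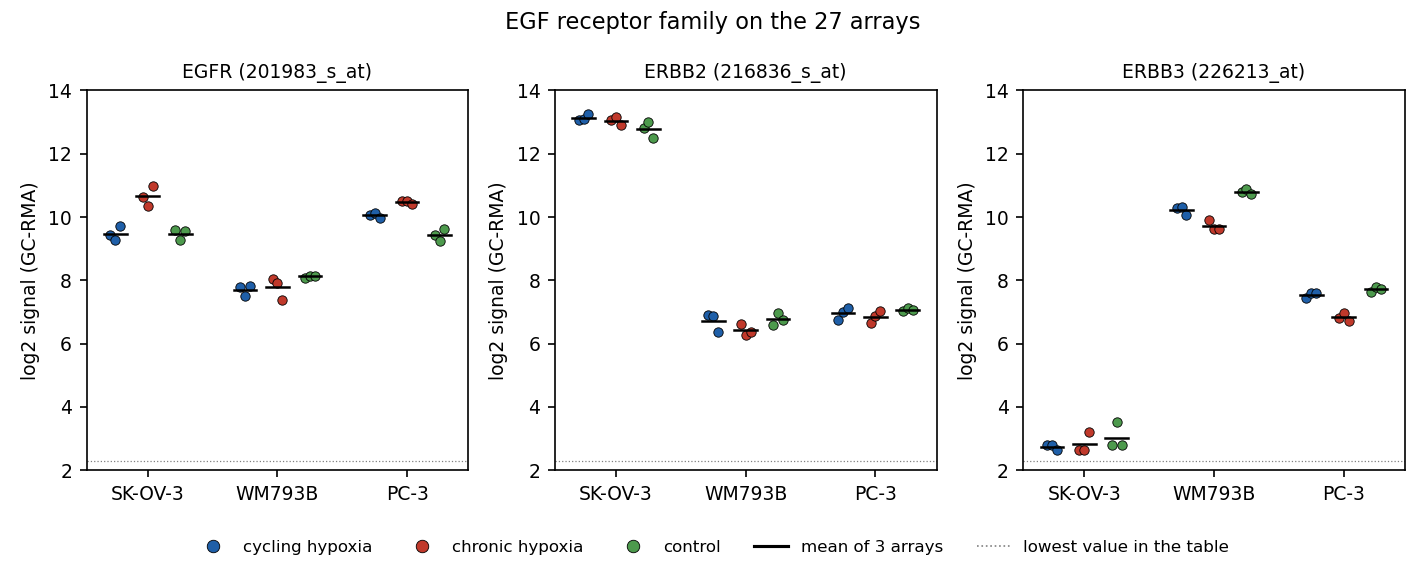
Log2 signal of the brightest probe set of EGFR, ERBB2 and ERBB3, by cell line, each point an array and each bar the mean of 3 arrays, with cycling hypoxia, chronic hypoxia and control from left to right. ERBB2 is at 12.5 or above on the SK-OV-3 arrays and below 7.2 elsewhere in this plot, and ERBB3 is at 9.61 or above on the WM793B arrays.

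The ligand genes EREG and AREG are neighbours on chromosome 4, with no gene between them in RefSeq, and BTC follows further along. EREG encodes epiregulin and AREG amphiregulin. Because both moved together in SK-OV-3 cells, and HBEGF with them under cycling hypoxia only, the 250 bases before their RefSeq start sites are shown, from build GRCh38.p14 and read along each gene. Capitals mark GCGTG on either strand (CACGC as printed), part of the core that hypoxia-inducible factors bind, and TGACGTCA, the full cAMP response element.
AREG, chr4:74444886-74445135, plus strand: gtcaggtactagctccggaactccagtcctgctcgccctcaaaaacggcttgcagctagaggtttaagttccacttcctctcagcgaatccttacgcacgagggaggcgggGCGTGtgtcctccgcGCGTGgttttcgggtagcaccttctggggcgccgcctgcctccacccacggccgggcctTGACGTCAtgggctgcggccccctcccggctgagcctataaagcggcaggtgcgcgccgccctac
EREG, chr4:74364895-74365144, plus strand: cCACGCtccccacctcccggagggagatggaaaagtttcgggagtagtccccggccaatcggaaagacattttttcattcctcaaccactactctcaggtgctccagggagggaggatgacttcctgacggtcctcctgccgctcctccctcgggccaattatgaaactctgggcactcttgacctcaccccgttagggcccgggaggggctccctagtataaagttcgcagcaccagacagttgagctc
HBEGF, chr5:140346604-140346853, minus strand: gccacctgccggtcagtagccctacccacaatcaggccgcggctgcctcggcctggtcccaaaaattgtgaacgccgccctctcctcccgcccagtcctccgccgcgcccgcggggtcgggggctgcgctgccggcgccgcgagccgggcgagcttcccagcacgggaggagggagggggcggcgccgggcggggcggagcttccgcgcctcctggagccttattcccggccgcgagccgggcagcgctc

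AREG held GCGTG at 139 and 124 bases before its start and TGACGTCA at 65 bases, EREG held GCGTG at 249 bases, and HBEGF held neither. Of 35116 RefSeq promoters cut to the same 250 bases, 32.2% held GCGTG and 1.65% held TGACGTCA. ACGTG, the other form of that core, was in none of the 3 (18.5% of all promoters held it), and neither was the AP-1 motif TGANTCA (6.57%). All motifs were searched on both strands, and a match is a description of the letters and not a binding site. RefSeq promoters were at hand for 7 of the 8 genes, with the exception of ERBB3. Among the genes not shown, BTC held GCGTG at 94 bases, and TGFA at 51 bases in promoter 2 of 2. TGANTCA was in ERBB2 and in promoter 2 of 2 of EGFR.

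EREG exceeded 3.01 only on SK-OV-3 arrays. Its arrays read 7.99, 7.8 and 7.55 under cycling hypoxia, 3.39, 3.1 and 2.55 under chronic hypoxia and 6.57, 6.52 and 6.94 in control cells. Every cycling array lay above every control array, and every chronic array fell close to the lowest value of the table. Against control, EREG rose 2.15-fold under cycling hypoxia (log2 difference 1.1, SE 0.23, adjusted p = 0.0106) and fell at least 12.7-fold under chronic hypoxia (log2 difference -3.66, SE 0.23, adjusted p = 2.94e-05). Cycling hypoxia stood at least 27.2-fold above chronic hypoxia (SE of the log2 difference 0.23, adjusted p = 4.64e-05). In WM793B cells EREG stayed between 2.28 and 2.31 and in PC-3 cells between 2.28 and 3.01, so that a change there was not measurable. The second EREG probe set was at 2.28 on all arrays.

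AREG took the same course in SK-OV-3 cells. It read 8.42, 8.63 and 8.71 under cycling hypoxia, 4.53, 4.4 and 4.38 under chronic hypoxia and 6.87, 7.28 and 7.27 in control cells, with no overlap between groups. The rise under cycling hypoxia was 2.73-fold (log2 difference 1.45, SE 0.13), the fall under chronic hypoxia 6.5-fold (log2 difference -2.7, SE 0.13). Cycling exceeded chronic hypoxia 17.8-fold.

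PC-3 cells, which had much more AREG than SK-OV-3 cells in control culture (SK-OV-3 minus PC-3 -2.95, adjusted p = 1.01e-16), raised it under cycling hypoxia as well. The PC-3 arrays read 11.39, 11.28 and 11.33 under cycling, 10.36, 10.13 and 10.35 under chronic hypoxia and 10.1, 10.07 and 10.1 in control cells. Cycling cells were 2.37-fold above control (log2 difference 1.25, SE 0.07) and 2.08-fold above chronic cells. Chronic cells were 0.19 above control, a small difference.

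In WM793B cells AREG was close to the lowest value of the table, with 2.5, 2.55 and 2.39 under cycling, 3.15, 2.88 and 2.85 under chronic hypoxia and 3.15, 3.07 and 3.16 in control cells. The cycling arrays were the lowest, 0.65 below control (log2 difference -0.65, SE 0.09, adjusted p = 0.0051), where all 9 values are within 1 of the lowest in the table. The probe set that the same gene lists call AREGB, a name that RefSeq gives as a synonym of AREG, was chosen there in the same way for PC-3 cells. It read 6.86, 7.16 and 6.5 under cycling, 5.79, 5.3 and 6.24 under chronic hypoxia and 5.57, 5.11 and 5.17 in control cells (cycling minus control 1.56, SE 0.27).

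HBEGF encodes heparin-binding EGF-like growth factor. In SK-OV-3 cells it read 6.79, 6.94 and 6.58 under cycling hypoxia, 4.76, 4.67 and 4.29 under chronic hypoxia and 4.6, 4.7 and 4.73 in control cells. Only the cycling arrays stood apart, 4.26-fold above control (log2 difference 2.09, SE 0.14, adjusted p = 8.83e-05) and 4.57-fold above chronic cells (log2 difference 2.19, SE 0.14, adjusted p = 0.000119). Chronic cells differed from control by -0.1 (95% interval -0.43 to 0.23, adjusted p = 0.621). A second probe set (38037_at) read 5.18, 5.17 and 4.89 under cycling hypoxia and 2.37 to 2.7 on the 6 other SK-OV-3 arrays.

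In PC-3 cells HBEGF rose under either kind of hypoxia. The arrays read 8.68, 8.99 and 8.91 under cycling, 8.62, 8.58 and 8.36 under chronic hypoxia and 7.21, 7.46 and 7.14 in control cells. All hypoxic arrays lay above all control arrays, by 3.01-fold under cycling (SE of the log2 difference 0.12, adjusted p = 7.33e-05) and 2.37-fold under chronic hypoxia (SE 0.12, adjusted p = 9.04e-05). The step between cycling and chronic cells, 0.34, was not called (95% interval 0.06 to 0.63, adjusted p = 0.0613). It was called on the second probe set, at 0.46 (adjusted p = 0.0294), and on the first without cycling replicate 1 (0.43, adjusted p = 0.0389). WM793B cells had 3.95 to 4.73 on all 9 arrays, with differences from control of 0.27 under cycling (95% interval -0.18 to 0.72) and 0.08 under chronic hypoxia (95% interval -0.37 to 0.54).

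TGFA encodes transforming growth factor alpha and rose most under chronic hypoxia. The SK-OV-3 arrays read 8.21, 8.46 and 8.41 under cycling, 9.61, 9.9 and 9.44 under chronic hypoxia and 7.36, 7.46 and 7.47 in control cells. The groups did not overlap, with chronic cells highest. The rises were 1.91-fold under cycling (SE of the log2 difference 0.12, adjusted p = 0.00152) and 4.66-fold under chronic hypoxia (SE 0.12, adjusted p = 1.74e-05), and cycling lay 2.45-fold below chronic hypoxia (adjusted p = 0.000514).

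WM793B cells raised TGFA under chronic hypoxia. It read 6.99, 6.99 and 7.9 under cycling, 8.67, 8.76 and 8.43 under chronic hypoxia and 6.74, 6.75 and 7.25 in control cells. The chronic arrays stood above all others, 3.26-fold above control (log2 difference 1.71, SE 0.27, adjusted p = 0.00272). Cycling cells overlapped the controls (log2 difference 0.38, 95% interval -0.26 to 1.02). Cycling lay 1.33 below chronic hypoxia (log2 difference -1.33, adjusted p = 0.021), with adjusted p values of 0.0634 to 0.0725 where cycling replicate 1 or 2 or chronic replicate 1 or 2 was left out. In PC-3 cells TGFA stayed between 8.57 and 8.88 on all arrays, with differences from control of 0.08 under cycling (95% interval -0.11 to 0.28) and 0 under chronic hypoxia (95% interval -0.2 to 0.19). The other TGFA probe sets, 211258_s_at and 205015_s_at, were dimmer. Both were called higher in chronic than in control SK-OV-3 cells, by 1.23 (adjusted p = 0.0108) and 1.8 (adjusted p = 0.0196), and likewise in WM793B cells, by 1.05 (adjusted p = 0.0435) and 1.9 (adjusted p = 0.00496). Neither was called under cycling hypoxia, with 0.45 (adjusted p = 0.291) and 1.05 (adjusted p = 0.147) in SK-OV-3 cells, nor in PC-3 cells.

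BTC, which encodes betacellulin, fell in SK-OV-3 and PC-3 cells. In SK-OV-3 cells it read 4.63, 5.67 and 4.69 under cycling, 4.4, 4.68 and 4.55 under chronic hypoxia and 6.74, 6.73 and 6.72 in control cells. All 6 hypoxic arrays lay below the controls, by 3.33-fold under cycling (SE of the log2 difference 0.26, adjusted p = 0.00263) and 4.57-fold under chronic hypoxia (SE 0.26, adjusted p = 0.000555). In PC-3 cells BTC fell under chronic and not under cycling hypoxia, with 6.43, 6.33 and 6.45 under cycling, 5.13, 4.97 and 5.38 under chronic hypoxia and 6.25, 6.23 and 6.28 in control cells. Chronic cells were 2.13-fold below control (adjusted p = 5.68e-05), cycling cells 2.36-fold above chronic cells (adjusted p = 0.000185), and cycling cells differed from control by 0.15 (95% interval -0.08 to 0.38). In WM793B cells BTC was between 2.37 and 3.58. The second BTC probe set (207326_at) was called in the same 2 lines and directions.

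**Figure D3:**
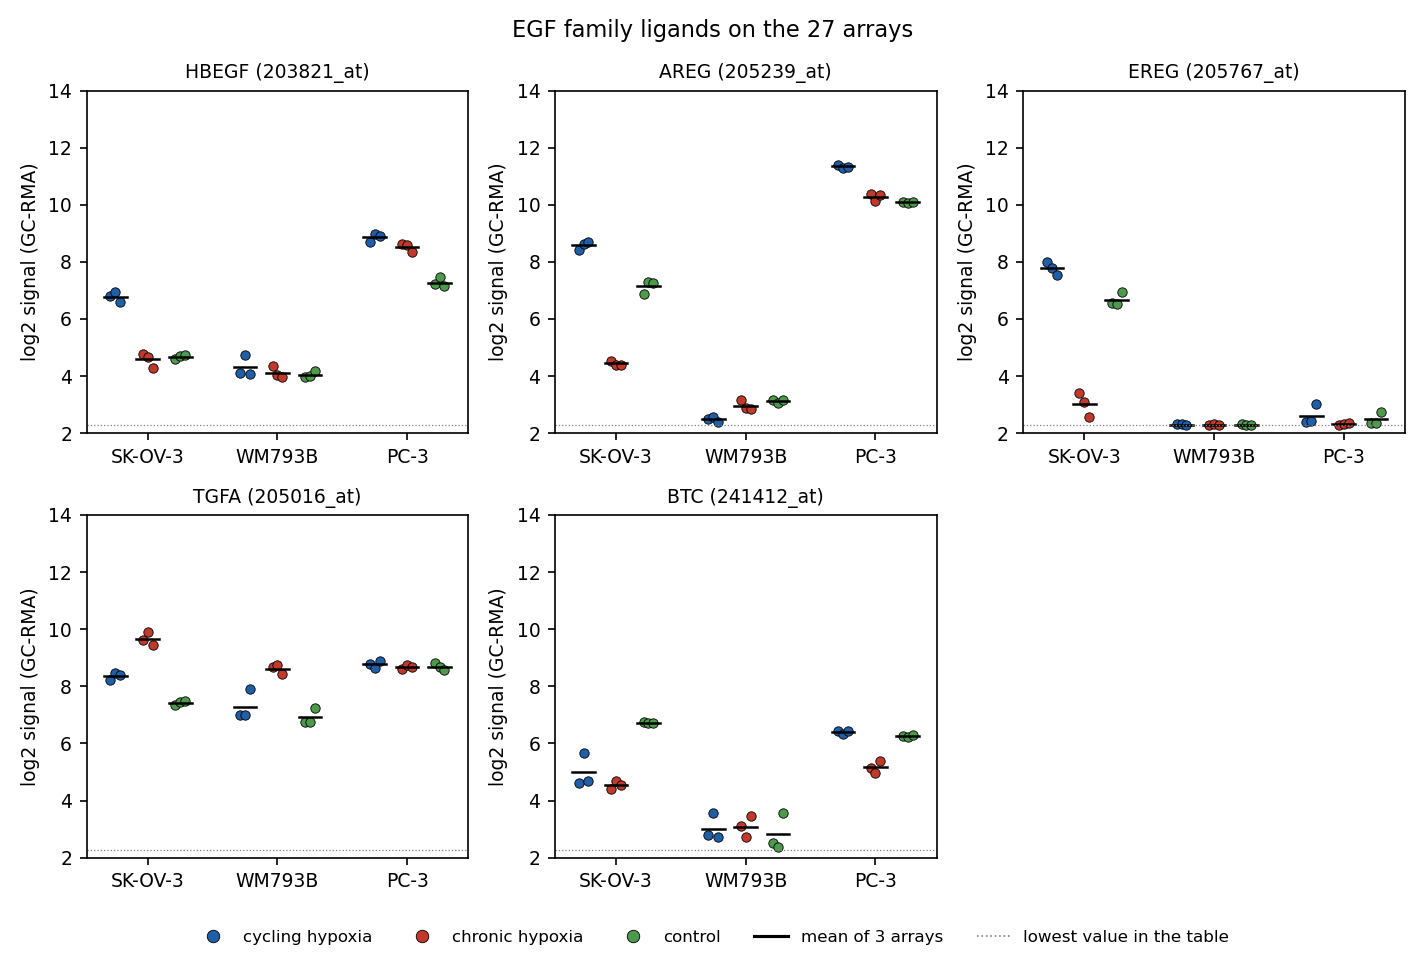
Log2 signal of HBEGF, AREG, EREG, TGFA and BTC, each on its brightest probe set, by cell line, each point an array and each bar the mean of 3 arrays, with cycling hypoxia, chronic hypoxia and control from left to right. In SK-OV-3 cells the cycling arrays of HBEGF (6.58 to 6.94), AREG (8.42 to 8.71) and EREG (7.55 to 7.99) are the highest of the line, while TGFA is highest under chronic hypoxia (9.44 to 9.9).

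Counted over the 7 genes, SK-OV-3 cells had 4 called under cycling hypoxia (30.3% of all probe sets tested were called), with HBEGF, EREG and TGFA higher and BTC lower. They had 4 called under chronic hypoxia (43.8%), with EGFR and TGFA higher and EREG and BTC lower. Cycling against chronic hypoxia gave 4 (30.4%), with HBEGF and EREG higher and EGFR and TGFA lower. The median difference of the 7 genes was 0.36 under cycling and -0.1 under chronic hypoxia, beside 0.01 and 0 over all probe sets tested.

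PC-3 cells had 2 genes called under cycling hypoxia (45.2% of all probe sets), EGFR and HBEGF, both higher. They had 4 called under chronic hypoxia (60.4%), with EGFR and HBEGF higher and ERBB3 and BTC lower, and 3 between cycling and chronic hypoxia (38%). WM793B cells had 1 called under cycling hypoxia (17.2%), which was ERBB3, 2 under chronic hypoxia (39.7%), TGFA and ERBB3, and 2 between cycling and chronic hypoxia (15.1%). Most of these shares are near those of all probe sets, and the family as a whole is not set apart by its number of calls.

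A narrower pattern was higher under cycling hypoxia than in both control and chronic cells. In SK-OV-3 cells 2 of the 7 genes met it, HBEGF and EREG (4.68% of all probe sets did). Both stand in the study's list of SK-OV-3 genes picked on these arrays for a pattern of this kind, so nothing is read from that count. In PC-3 cells 0 of the 7 genes met the pattern on the brightest probe set (2.93%), and in WM793B cells 0 of the 7 (0.626%). AREG had this pattern in SK-OV-3 and PC-3 cells, which its choice from the lists of genes responsive to cycling hypoxia fixed, and nothing is read from it.

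**Figure D4:**
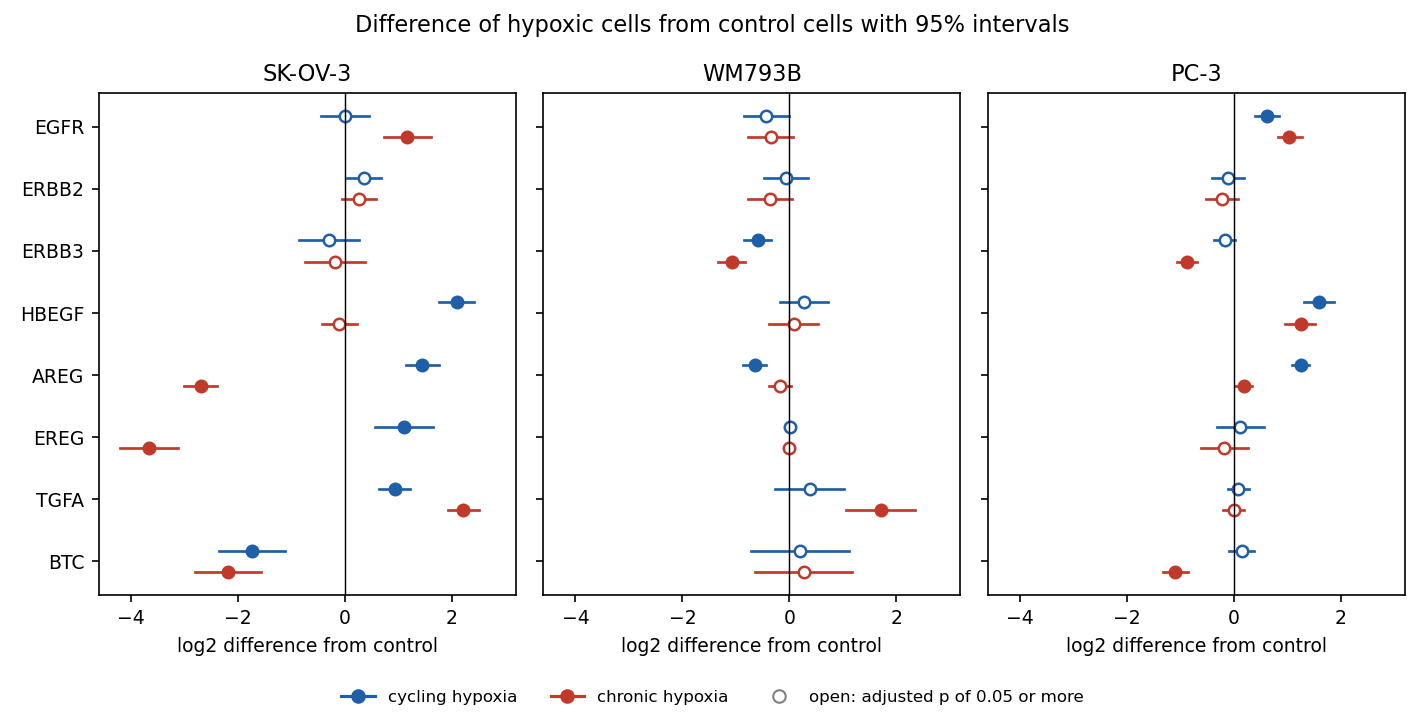
Log2 difference of cycling and of chronic hypoxia from control for each gene on its brightest probe set, 1 panel per cell line. Lines are 95% intervals from limma, and open circles mark an adjusted p of 0.05 or more. For AREG in SK-OV-3 and PC-3 cells, intervals and filled circles under both kinds of hypoxia are a description and no test. EREG and AREG lie on opposite sides of 0 under the 2 conditions in SK-OV-3 cells, at 1.1 and 1.45 under cycling and -3.66 and -2.7 under chronic hypoxia.

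The difference in response between the lines was tested in 1 model of all 27 arrays. Under chronic hypoxia it was called for 7 of the 7 genes (67.6% of all probe sets), under cycling hypoxia for 5 (48.2%), with the exception of ERBB2 and ERBB3. The AREG response under chronic hypoxia was 2.89 lower in SK-OV-3 than in PC-3 cells (difference -2.89, SE 0.16), a description. HBEGF responded to chronic hypoxia less in SK-OV-3 than in PC-3 cells (difference -1.35, SE 0.23, adjusted p = 3.77e-05), and to cycling hypoxia without a called difference (0.5, adjusted p = 0.092) on the brightest probe set. On the second (38037_at) the difference under cycling hypoxia was 0.82 (SE 0.17), a description. The study picked that probe set on these arrays for its change under cycling hypoxia in SK-OV-3 cells. TGFA responded to chronic hypoxia more in SK-OV-3 than in PC-3 cells (2.23, SE 0.26, adjusted p = 3.07e-07), and its difference between SK-OV-3 and WM793B cells, 0.52, was not called (adjusted p = 0.11).

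The release proteins of the ligands were a list of 9 genes, all tested. In SK-OV-3 cells 4 rose and 1 fell under either kind of hypoxia (30.3% of all probe sets were called under cycling and 43.8% under chronic hypoxia). ADAM12, a protease of the family that sheds HBEGF, rose by 1.56 under cycling (adjusted p = 0.00282) and 2.2 under chronic hypoxia (adjusted p = 0.000363). CD9, a membrane partner of the HBEGF precursor, rose by 1 and 1.61. In PC-3 cells 5 rose and 1 fell under either kind (45.2% and 60.4% of all probe sets), so that the count under chronic hypoxia is near the share of all probe sets. ADAM17, the main sheddase of AREG and TGFA, rose by 0.75 under cycling (adjusted p = 0.000131) and 1.27 under chronic hypoxia (adjusted p = 4.66e-06). RHBDF1, an inactive rhomboid that helps ADAM17 mature, rose there by 0.9 and 1.41. In WM793B cells none was called under cycling (17.2%) and 2 fell under chronic hypoxia (39.7%). The medians were 0.46 and 0.15 in SK-OV-3, -0.01 and -0.15 in WM793B and 0.38 and 0.22 in PC-3 cells under cycling and chronic hypoxia, where those of all probe sets were between -0.03 and 0.01.

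Early response genes of ERK signaling, 13 of 16 listed being tested, were called higher in SK-OV-3 cells, 12 of them under cycling and 9 under chronic hypoxia, and 0 were called lower (30.3% and 43.8% of all probe sets were called in either direction). Their median difference was 1.24 under cycling and 0.84 under chronic hypoxia. FOS, a subunit of AP-1, rose by 2.75 under cycling (adjusted p = 0.00063) and 2.18 under chronic hypoxia (adjusted p = 0.00103). PLAUR, the urokinase receptor, stood 1.17 lower in cycling than in chronic cells of this line (log2 difference -1.17, adjusted p = 0.00161). EPHA2, a receptor kinase, stood 1.29 higher in the cycling cells. The study lists EPHA2 among SK-OV-3 genes picked on these arrays for their response to cycling hypoxia. Its difference is therefore given with no test, and it is also among the 12 genes counted under cycling hypoxia. In PC-3 cells 8 rose and 1 fell under cycling (45.2%) and 8 rose and 2 fell under chronic hypoxia (60.4%), with medians of 0.47 and 0.73. In WM793B cells 1 rose and 1 fell under either kind (17.2% and 39.7%), with medians of 0.02 and -0.19. The part of the EGF receptor in these values was not tested.

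Inhibitors of the receptors and of their signal, 13 of 19 being tested, moved in both directions. ERRFI1, which blocks the EGFR kinase, rose in SK-OV-3 cells by 1.49 under cycling (adjusted p = 2.01e-05) and 0.78 under chronic hypoxia (adjusted p = 0.000118). In PC-3 cells it rose by 1.58 under cycling (adjusted p = 4.22e-05) and 1.87 under chronic hypoxia (adjusted p = 6.99e-06). DUSP5, a phosphatase of ERK, was 2.76 higher in cycling than in chronic SK-OV-3 cells (adjusted p = 0.000567), and chronic cells were 2.25 below control (log2 difference -2.25, adjusted p = 0.000595). In PC-3 cells it rose by 2.24 under chronic hypoxia (adjusted p = 2.75e-06), the opposite direction. Under cycling hypoxia, calls in the 13 genes numbered 6 among SK-OV-3 arrays (5 upward), 2 among WM793B arrays (both upward) and 10 among PC-3 arrays (5 upward and 5 downward), where 30.3%, 17.2% and 45.2% of all probe sets were called. The SK-OV-3 calls include DUSP6 and the PC-3 calls CBLB. The study lists other probe sets of these genes among those picked in these lines for their response to cycling hypoxia, on these arrays.

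Of 21 adaptors and kinases downstream of the receptors, 8 passed the variation filter. SHC1, an adaptor of the receptors, rose under cycling hypoxia by 0.29 in SK-OV-3 (adjusted p = 0.00444), 0.37 in WM793B (adjusted p = 0.0123) and 0.38 in PC-3 cells (adjusted p = 0.0019). Of the other receptor and ligands of the family, 3 of 7 were tested. ERBB4, the remaining receptor, fell in WM793B cells by 1.4 under cycling (log2 difference -1.4, adjusted p = 0.00702) and by 1.15 under chronic hypoxia (-1.15, adjusted p = 0.00494). EGF rose in PC-3 cells by 1 under cycling (adjusted p = 0.0106) and 1.02 under chronic hypoxia (adjusted p = 0.00645).

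Likeness of pattern was measured as Pearson's r over the 27 arrays after the mean of each cell line was taken off, among 10021 genes. The arrays of a group share their culture condition, so r is a description. The gene most like AREG was EREG (r = 0.931), followed by SRSF12, a splicing factor (0.926), SCAF8 (0.916), LINC02806 (0.916) and YAF2 (0.906). For EREG it was LINC02806 (0.987), then SRSF12 (0.973), ALAS1, the first enzyme of heme synthesis (0.956), LINC02864 (0.943) and AREG (0.931). Between AREG and EREG r was 0.98 over the 9 SK-OV-3 arrays, -0.27 over the 9 WM793B arrays and 0.38 over the 9 PC-3 arrays, and EREG was near the lowest value in the last 2 lines. The genes most like AREG had r of 0.97 to 0.98 within SK-OV-3 and -0.19 to 0.65 within PC-3 cells, and those most like EREG 0.95 to 0.99 and -0.25 to 0.83. Within WM793B cells, where AREG was near the lowest value, SCAF8 (0.86) and YAF2 (0.79) also went with AREG. EREG (-0.27) did not, and SRSF12 and LINC02806 gave no r there. With EREG, r in WM793B cells was -0.32 to 0.15 where it could be computed. Only within SK-OV-3 cells were all these likenesses high. HBEGF was most like TRIM8 (0.898), BCAR3, an adaptor (0.887), SLK, a kinase (0.884), CXCL8, the chemokine interleukin 8 (0.876) and CAB39 (0.87), with r of 0.89 to 0.97 within SK-OV-3, -0.31 to 0.46 within WM793B and 0.87 to 0.94 within PC-3 cells. HBEGF and AREG correlated at 0.714, TGFA and AREG at -0.483.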

How the data were processed

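Total RNA of the 27 cultures was hybridized to Human Genome U133 Plus 2.0 arrays. The authors processed the scans with GC-RMA and deposited log2 values of 54675 probe sets, used here without further normalization; medians of the arrays were 2.61 to 2.66. RNA was isolated on columns with DNase digestion, and the Bioconductor package gcrma was used. GC-RMA shrinks dim probe sets towards a common low value, which compresses differences there.

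The platform annotation gives 41097 probe sets 1 gene symbol, 1801 several and leaves 11777 unnamed. As in the methods of the study, a probe set was kept where 20% of the arrays or more lay at least 1.5-fold away from its median, which left 19800. Each comparison within a line was fitted to its 9 arrays with limma 3.58.1 in R 4.3.3, and comparisons of control cells and of responses between lines to all 27 arrays in 9 groups. The p values were adjusted by Benjamini and Hochberg over all 19800 probe sets and called under 0.05; intervals are 95%, unadjusted. The code was tested on simulated data. The number of arrays, 3 per group, limits the precision, and the labels call them biological replicas without naming separate passages, so p values measure the spread between these arrays.

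All 8 genes were described on the brightest probe set, with the others beside it. From a background list, the genes named are at most 4 called ones per comparison with the largest differences. The genes and lists were chosen with earlier results of these data known. Columns of the authors' comparisons were not used. Alternatives were no variation filter, a filter on dim probe sets (a mean of at least 5 in 1 group), centring, another quantile normalization, the mean of a gene's probe sets, 1 model of all arrays, the study's F-test with a 2-fold difference, the replicate number as a block, and each array left out.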

Additional observations from a re-analysis of the deposited data

Results flagged for a closer look

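In limma's model of all 27 arrays the response to chronic hypoxia differed between cell lines for 7 of the 7 genes (67.6% of all probe sets). Under cycling hypoxia it differed for 5 (48.2%). AREG is given beside them. Under chronic hypoxia the largest differences in response (log2, adjusted p of the pair) were 1.52 for EGFR (1.51e-05), 0.62 for ERBB2 (0.0239), 0.89 for ERBB3 (0.003), -3.66 for EREG (1.45e-10) and -2.46 for BTC (2.18e-05), each SK-OV-3 minus WM793B. SK-OV-3 minus PC-3 gave -1.35 for HBEGF (3.77e-05) and 2.23 for TGFA (3.07e-07). For AREG it was -2.89, a description. HBEGF and EREG are in the study's SK-OV-3 list too, and the chronic arrays entered that choice.

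Under cycling hypoxia SK-OV-3 minus WM793B gave -1.93 for BTC (0.000581). It gave 1.82 for HBEGF and 1.09 for EREG, a description, since both are in the study's SK-OV-3 list picked on these arrays. For AREG it was 2.1, a description, since its probe set was named from genes picked for their change under cycling hypoxia. SK-OV-3 minus PC-3 gave 0.85 for TGFA (0.0141), and WM793B minus PC-3 gave -1.05 for EGFR (0.00264). The EGFR values rest on the brightest probe set, and its other probe sets disagree in WM793B cells. Those of ERBB2 disagree too. Under chronic hypoxia SK-OV-3 minus WM793B was -0.4 (0.416) on 210930_s_at and 1.91 (0.000128) on 234354_x_at. In lines where a gene was near the lowest value of the table, as EREG and BTC in WM793B and ERBB3 in SK-OV-3 cells, a fall could not be measured in full.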

How the results depend on the processing

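No called result changed direction under any alternative. Differences that were not called and lay near 0 changed sign in some, for example HBEGF in chronic against control SK-OV-3 cells (-0.1, range -0.19 to 0.04), ERBB3 in the same comparison (-0.37 to 0.06) and TGFA in chronic against control PC-3 cells (-0.17 to 0.06). With every array kept, counts of the 7 genes moved most in 6 cases, which follow. Smaller changes of a count also occurred and are not listed. Between cycling and chronic hypoxia, WM793B cells had 0 genes called without the variation filter (limma, with ERBB3 at an adjusted p of 0.0739 and TGFA at 0.0683), and PC-3 cells 5 with the mean of a gene's probe sets. With the study's F-test and a 2-fold difference, PC-3 cells had 1 called for cycling against control and 1 for cycling against chronic hypoxia, and WM793B cells 0 and 1, since several called differences were under 2-fold. Leaving out 1 array at a time gave 0 to 2 genes for cycling against chronic hypoxia in WM793B cells, lost with cycling replicate 1 or 2 or chronic replicate 2. Other counts changed less. PC-3 cells had 3 to 4 called between cycling and chronic hypoxia, and SK-OV-3 cells 4 to 5 for cycling against control. Control WM793B cells differed from control SK-OV-3 cells in 6 to 7 genes and from control PC-3 cells in 5 to 6. The response differed between lines for 6 to 7 genes under chronic and 4 to 6 under cycling hypoxia.

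Single genes that crossed the threshold were mostly small differences. AREG in PC-3 cells under chronic hypoxia, a description, lay 0.15 to 0.27 above control over the alternatives. AREG in WM793B cells, cycling against chronic hypoxia, had 0.0503 without cycling replicate 1, and chronic against control 0.0255 without chronic replicate 1. TGFA in control SK-OV-3 against control WM793B cells had 0.0643 and 0.062 without WM793B control replicate 1 or 2. ERBB2 in control WM793B against control PC-3 cells had 0.0484 without WM793B control replicate 2.

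The labels give the groups the same replicate numbers. With the replicate number as a block, PC-3 cells had 2 genes called under cycling and 4 under chronic hypoxia and 3 between them, and the block changed no call. Arrays of the same number did not deviate together throughout (r -0.053 to 0.151 in PC-3, -0.092 to 0.164 in SK-OV-3 and -0.024 to 0.287 in WM793B cells), so the numbers were not taken as pairs. In WM793B cells they did so in part, with a mean r of 0.113 for the same number and -0.053 for different numbers. There 4 of the 9 same-number values exceeded 0.1. Signal near the lowest value limits EREG outside SK-OV-3 cells and in their chronic cultures, ERBB3 in SK-OV-3 cells and AREG, HBEGF and BTC in WM793B cells.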
